A study of Mus musculus with 6 samples.

Results

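The 10 genes described here mark macrophages of mouse tumors, and all 10 were among the 21899 genes measured. They were taken by name, with earlier results of these data known: Adgre1, Csf1r, C1qa, C1qb, C1qc, Mrc1, Cd68, Apoe, Ms4a7 and Trem2. All 10 exceeded a mean of 1 FPKM (fragments per kilobase of exon, scaled to the total of each sample) over the 6 samples, a level that 10853 genes reached and that was used for every test.

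The 6 samples were RNA from whole tumors grown under the skin of male C57BL/6 mice from LLC-luc cells, a luciferase-carrying line of the Lewis lung carcinoma. All 3 groups received laser light, and each group had 2 samples. The Laser group received light without a photosensitizer, and by the study's methods it was given saline of equal volume. The PC-La group was injected with phycocyanin (PC), a light-absorbing protein used as a photosensitizer for photodynamic therapy, and the SePC-La group with selenium-enriched phycocyanin (SePC). The labels give a 620 nm laser for 10 min, 4 h after an injection repeated every 5 days, while the study's methods state another wavelength and interval. The mice are described only as adult, and the graft lay in the axillary skin region and not in the lung. Phycocyanin is described by the study as a photosensitizer that targets tumor macrophages through scavenger receptor A, so the comparisons below ask how macrophage transcripts differed between the irradiated tumors. Nothing in the sources used here ties each sample to a single mouse, so the p-values measure only the spread between these samples.

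Macrophages arise from circulating monocytes or from precursors seeded in tissue, and depend on signalling through the receptor CSF1R for survival. Inside tumors they engulf dying cells, handle the lipid this yields, and secrete the C1q complement protein. Because whole tumors were measured, fewer macrophages and less RNA of a gene per macrophage cannot be told apart, and other cells of a tumor can also transcribe some of these genes, Apoe and Cd68 among them.

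Depth recovered from the FPKM values ranged from 14447792 to 17649489 reads per sample. The second Laser sample held more skeletal muscle transcript than any other sample, with a summed level of 124 FPKM for 6 muscle genes against 19.1 FPKM in the first Laser sample and 1.52 to 5.94 FPKM in the other 4 samples. The first SePC-La sample had the lowest value of the 6 samples for 29.7% of the genes tested. It had the lowest value for 9 of the 10 macrophage genes, so the comparisons with SePC-La are also given without it.

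The macrophage genes spanned nearly 2 orders of magnitude in level per exon length, from Apoe with a mean of 351 FPKM over the 6 samples to Trem2 with 4.79 FPKM. C1qa, at 250.0 FPKM, and C1qb, at 230.1 FPKM, followed Apoe, and C1qc, at 97.3 FPKM, and Cd68, at 65.1 FPKM, came next. Csf1r, at 23.8 FPKM, Mrc1, at 20.8 FPKM, Adgre1, at 17.1 FPKM, and Ms4a7, at 7.999 FPKM, made up the lower part of the order. The plot of the members by sample shows the low position of the first SePC-La sample for every gene but Cd68.

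**Figure D1:**
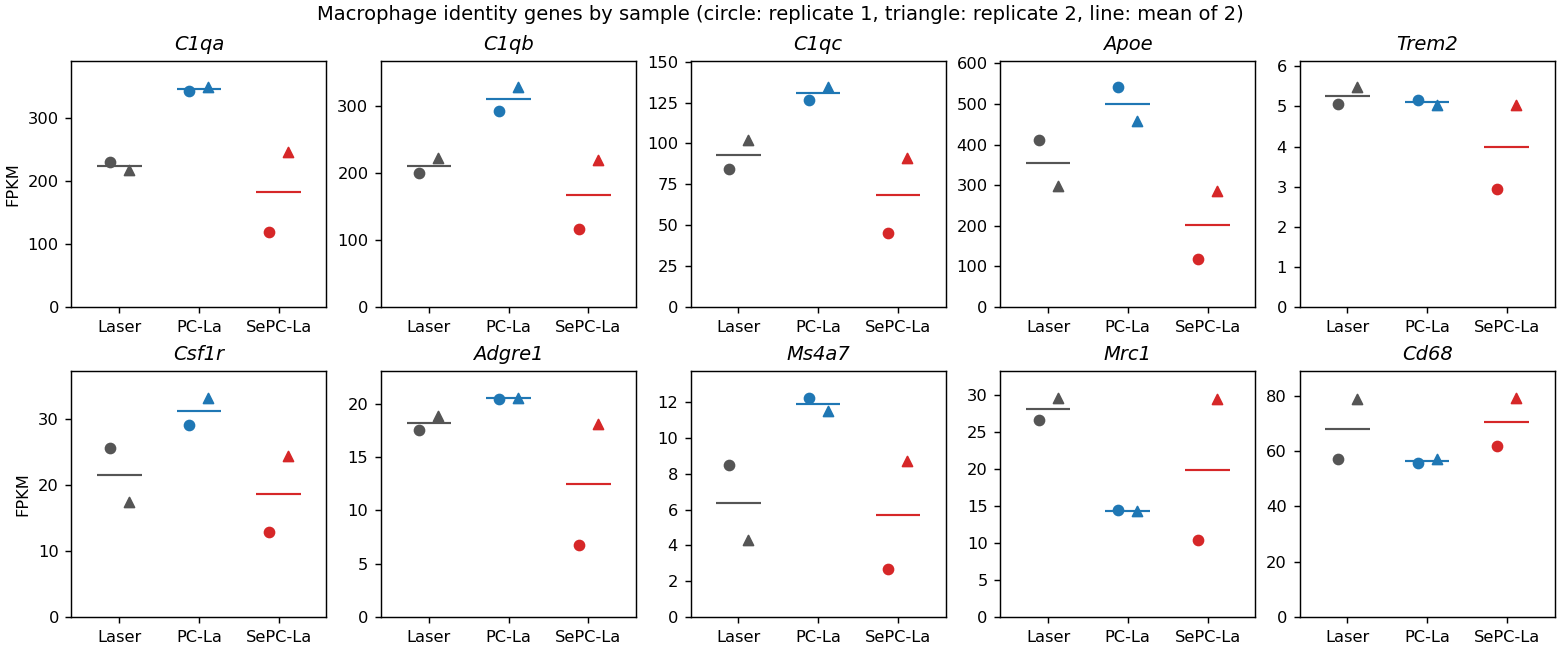
FPKM of each of the 10 macrophage genes (linear axes from 0, a panel per gene) in the 6 tumor samples, with a circle for the first and a triangle for the second replicate of each group and a line at their mean. The first SePC-La sample is the lowest point for 9 of the 10 genes, with Cd68 as the exception, while the PC-La samples lie close together.

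C1qa, C1qb and C1qc encode the 3 chains of C1q, the recognition molecule of the classical complement pathway. In the GRCm38 annotation the 3 genes are neighbors on the minus strand of chromosome 4, C1qb at chr4:136880129-136886187, C1qc at chr4:136889804-136893065 and C1qa at chr4:136895917-136898803. C1qa measured 229.6 and 216 FPKM in the Laser samples, 342 and 348 FPKM in the PC-La samples, and 118.5 and 246 FPKM in the SePC-La samples. The PC-La values lay above all others, and the first SePC-La value lay far below the rest. C1qb measured 199.9 and 223 FPKM in Laser, 293 and 328.5 FPKM in PC-La, and 116 and 220.0 FPKM in SePC-La. C1qc measured 84.4 and 102 FPKM in Laser, 127 and 134 FPKM in PC-La, and 45.5 and 90.9 FPKM in SePC-La. All 3 chains thus had the same order of samples at the extremes, with PC-La highest and the first SePC-La sample lowest.

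The 3 chains kept near-constant proportions within a sample. The ratio of C1qb to C1qa in FPKM lay between 0.856 and 1.03 over the 6 samples, and that of C1qc to C1qa between 0.368 and 0.471. The ratios here and below were chosen after the values were seen, and with 2 samples against 2 the smallest 2-sided permutation p for a single ratio is 0.333, so they are given as descriptions.

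Promoter windows of C1qb and C1qc are shown here as neighbors with near-constant proportions, beside those of Mrc1 and Cd68, the pair of genes whose levels followed the others least. Each holds 250 bases before and 50 after a start site, from RefSeq on GRCm38.p6, 5′ to 3′ along the gene. Capitals mark matches, on either strand, to GAGGAA, the core bound by the macrophage factor PU.1, and to TGANTCA, the motif bound by AP-1. The PU.1 core reads TTCCTC where it lies on the other strand. The windows are chr4:136886151-136886450 on the minus strand for C1qb, chr4:136892865-136893164 on the minus strand for C1qc, chr2:14229164-14229463 on the plus strand for Mrc1 and chr11:69666121-69666420 on the minus strand for Cd68.
C1qb: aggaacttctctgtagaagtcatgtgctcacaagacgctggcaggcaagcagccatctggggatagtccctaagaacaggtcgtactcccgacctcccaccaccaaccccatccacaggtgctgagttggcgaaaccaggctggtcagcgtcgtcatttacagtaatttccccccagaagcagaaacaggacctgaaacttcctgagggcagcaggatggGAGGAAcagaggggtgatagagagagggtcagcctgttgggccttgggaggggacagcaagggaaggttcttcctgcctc
C1qc: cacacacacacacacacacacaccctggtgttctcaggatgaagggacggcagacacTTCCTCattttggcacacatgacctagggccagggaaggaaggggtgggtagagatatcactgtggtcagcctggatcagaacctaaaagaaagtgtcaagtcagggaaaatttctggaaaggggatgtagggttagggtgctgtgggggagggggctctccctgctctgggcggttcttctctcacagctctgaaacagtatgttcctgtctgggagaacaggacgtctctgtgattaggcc
Mrc1: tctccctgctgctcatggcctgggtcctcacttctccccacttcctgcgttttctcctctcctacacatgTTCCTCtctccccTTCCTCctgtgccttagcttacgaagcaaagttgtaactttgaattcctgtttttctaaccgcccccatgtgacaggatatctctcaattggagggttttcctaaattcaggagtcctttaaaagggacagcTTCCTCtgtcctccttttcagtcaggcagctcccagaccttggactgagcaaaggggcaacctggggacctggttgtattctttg
Cd68: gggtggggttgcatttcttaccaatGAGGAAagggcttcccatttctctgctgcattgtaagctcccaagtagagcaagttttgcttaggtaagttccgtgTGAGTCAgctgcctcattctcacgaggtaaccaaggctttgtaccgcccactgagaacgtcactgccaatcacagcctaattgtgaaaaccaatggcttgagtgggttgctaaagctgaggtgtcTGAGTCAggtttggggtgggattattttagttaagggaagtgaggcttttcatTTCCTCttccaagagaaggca

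GAGGAA began at position -30 from the start site (the first transcribed base is 0) in C1qb, at -193 in C1qc, at -180, -167 and -35 in Mrc1, and at -225 and 29 in Cd68. TGANTCA occurred at -149 and -24 in Cd68 and nowhere in the other 3 windows. The promoter table matched 7 of the 10 members with 10 windows, and GAGGAA occurred in 8 of them, covering all 7 genes, against 28.3% of 32851 windows and 31.3% of 27025 genes in the whole table. TGANTCA occurred in 3 of the 10 windows, those of Cd68, Trem2 and Ms4a7, against 7.81% of all windows. These matches describe the letters only. The genes Adgre1, Csf1r and C1qa were not matched.

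Apoe encodes the lipoprotein that carries cholesterol out of lipid-laden macrophages, and TREM2 is a surface receptor that senses lipids and lipoproteins, APOE among them. Apoe lies at chr7:19696109-19699188 on the minus strand and Trem2 at chr17:48346401-48354147 on the plus strand. Apoe measured 411 and 297 FPKM in Laser, 541 and 458 FPKM in PC-La, and 118 and 285 FPKM in SePC-La. Its groups did not overlap, in the order PC-La, Laser, SePC-La, although the second SePC-La sample was only just below the second Laser sample. Trem2 measured 5.05 and 5.48 FPKM in Laser, 5.16 and 5.04 FPKM in PC-La, and 2.95 and 5.03 FPKM in SePC-La. Trem2 thus had 5 nearly equal samples and a single low one.

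Csf1r encodes the receptor for the macrophage growth factor CSF1 and lies at chr18:61100598-61132149 on the plus strand. It measured 25.5 and 17.5 FPKM in Laser, 29.1 and 33.2 FPKM in PC-La, and 12.9 and 24.4 FPKM in SePC-La. The annotation places 873 of its 5774 exon bases over exons of Hmgxb3 on the opposite strand, and since the strand setting of the counting is not given in the sources used here, reads from those bases cannot be told apart. The Csf1r values of PC-La lay above all others, while those of Laser and SePC-La overlapped.

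Adgre1 encodes a surface antigen by which mouse macrophages are commonly sorted, and lies at chr17:57358691-57483527 on the plus strand. It measured 17.6 and 18.9 FPKM in Laser, 20.5 and 20.6 FPKM in PC-La, and 6.78 and 18.1 FPKM in SePC-La. Apart from the first SePC-La sample, Adgre1 varied little. Ms4a7, a tetraspanning membrane protein gene of macrophages at chr19:11321039-11336146 on the minus strand, measured 8.52 and 4.28 FPKM in Laser, 12.3 and 11.5 FPKM in PC-La, and 2.67 and 8.73 FPKM in SePC-La. The PC-La samples again lay above all others, and both other groups spread widely.

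Mrc1 encodes the mannose receptor CD206, an endocytic lectin often used as a label of alternatively activated macrophages, and lies at chr2:14229392-14332057 on the plus strand. It measured 26.7 and 29.7 FPKM in Laser, 14.5 and 14.3 FPKM in PC-La, and 10.3 and 29.5 FPKM in SePC-La. Mrc1 was the member that was lower in PC-La than in Laser without overlap, and its SePC-La samples fell on either side of the PC-La pair. Cd68, which encodes a glycoprotein of macrophage lysosomes and lies at chr11:69664213-69666153 on the minus strand, measured 57.1 and 78.8 FPKM in Laser, 55.8 and 57.3 FPKM in PC-La, and 62.0 and 79.4 FPKM in SePC-La. Cd68 was the only member of the 10 whose lowest sample was not the first SePC-La sample.

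With PC-La set against Laser, 7 of the 10 genes were higher without overlap of the groups, against 20.4% of all genes tested, but none passed the test. The 7 were C1qa, C1qb, C1qc, Apoe, Csf1r, Ms4a7 and Adgre1. Mrc1 was lower without overlap, as were 21.6% of all genes, and Cd68 and Trem2 overlapped. The median difference of the 10 genes on the scale of log2(FPKM + 1), used for every log2 difference below, was 0.50 (range 0.28 to 0.50 when any sample was left out), beside a median of -0.001 over all genes tested.

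The study's criterion, used there with DESeq, was a log2 difference beyond 1 with an unadjusted p under 0.05. Applied here to limma results, it was met by 0 of the 10 genes in this comparison and by 1.29% of all genes in either direction. Without the first Laser sample 664 of all genes met it in place of 140, and without the second 81, with 0 of the 10 macrophage genes in either case. The voom method of limma on recovered reads also gave 0. At an unadjusted p under 0.05 alone, 0 of the 10 genes and 5.78% of all genes passed. The largest of the 10 differences were those of Mrc1, at -0.92 (SE 0.44, adjusted p = 0.753 by limma over all genes tested), and of Ms4a7, at 0.86 (SE 0.51, adjusted p = 0.753). C1qa differed by 0.63 (SE 0.32, adjusted p = 0.753), C1qb by 0.55, Csf1r by 0.54, Apoe by 0.51, C1qc by 0.49 and Adgre1 by 0.17. Cd68, at -0.24, had a 95% interval from -0.71 to 0.23, and Trem2, at -0.04, had an interval from -0.55 to 0.47.

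Relative to C1qa in the same sample, Mrc1 measured 0.116 and 0.137 under Laser, 0.0423 and 0.0410 under PC-La, and 0.0874 and 0.120 under SePC-La. Both PC-La samples lay below the other 4 in this ratio. The ratio of Cd68 to C1qa was also lowest in PC-La, at 0.163 and 0.165, against 0.249 and 0.365 in Laser and 0.523 and 0.323 in SePC-La. The plot of ratios within samples shows these proportions side by side.

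**Figure D2:**
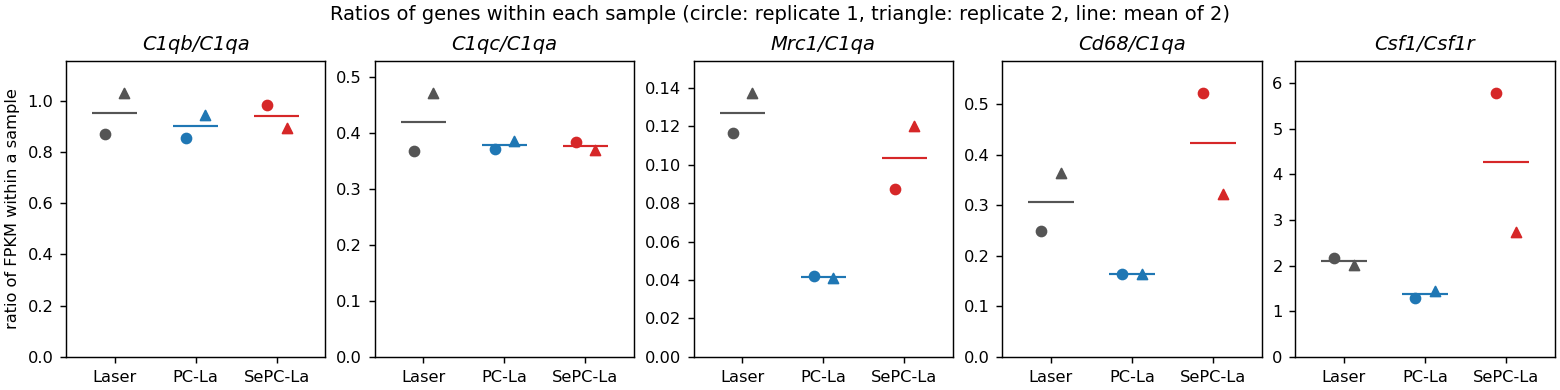
Ratios of FPKM between genes of the same sample, on linear axes from 0, with a circle for the first and a triangle for the second replicate of each group and a line at their mean. Mrc1 over C1qa is lowest in the PC-La samples, at 0.0423 and 0.0410, while C1qb over C1qa stays between 0.856 and 1.03.

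In SePC-La against Laser, 0 of the 10 genes met the criterion, against 0.682% of all genes, and 0 passed an unadjusted p under 0.05, against 12.1% of all genes. The groups overlapped for 8 of the 10 genes. Apoe was lower without overlap, by a log2 difference of -0.93 (SE 0.42, adjusted p = 0.437 by limma), and Trem2 by -0.36 (SE 0.21, adjusted p = 0.51), with the higher SePC-La sample at 5.03 FPKM against 5.05 FPKM in the lower Laser sample. All genes gave 25.6% lower without overlap. The median over the 10 genes was -0.39 (all genes -0.065). Without the first SePC-La sample it was 0.06, and without the second it was -0.93. In the latter case more of the 10 genes met the criterion, as did more of all genes. The difference of Apoe was -0.29 and that of Trem2 -0.06 without the first SePC-La sample.

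In SePC-La against PC-La, Apoe, C1qa and C1qc met the criterion as lower in SePC-La, 3 of the 10 genes against 1.80% of all genes in that direction. By limma none of the 10 had an adjusted p under 0.05 in any of the 3 comparisons, nor had any other gene tested (0.0%). Apoe differed by -1.44 (SE 0.42, adjusted p = 0.146 by limma), C1qa by -1.01 (SE 0.32, adjusted p = 0.155) and C1qc by -1.01 (SE 0.31, adjusted p = 0.151). At an unadjusted p under 0.05 alone, 5 of the 10 genes were lower, against 14.4% of all genes, the other two being C1qb, at -0.95 (SE 0.29), and Csf1r, at -0.78 (SE 0.32).

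The groups did not overlap for 8 genes that were lower in SePC-La, against 39.5% of all genes, and for Cd68, which was higher by 0.31 (SE 0.20), as 26.0% of all genes were. Ms4a7, at -1.11 (SE 0.51), Adgre1, at -0.82 (SE 0.40), and Trem2, at -0.32 (SE 0.21), made up the 8 with the 5 above. Mrc1, at 0.28 (SE 0.44), was the gene with overlap. The median over the 10 genes was -0.89, beside -0.074 over all genes.

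For the 8 lower genes, each SePC-La sample lay below both PC-La samples. The calls at the criterion and the size of the differences depended on the first SePC-La sample. Without it, 0 of the 10 genes met the criterion and their median was -0.37. Without the second SePC-La sample, the median was -1.44, and more of the 10 genes met the criterion, as did more of all genes. Fewer of the 10 genes met the criterion when either PC-La sample was left out, and not the same ones in both cases. Scaling the samples by median ratios left 1 at the criterion, with C1qa and C1qc each at -0.90. The difference of Apoe without the first SePC-La sample was -0.80, that of C1qa -0.49 and that of C1qc -0.52. Of the other genes, C1qb then differed by -0.49, Ms4a7 by -0.41, Csf1r by -0.34, Adgre1 by -0.17 and Trem2 by -0.02.

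**Figure D3:**
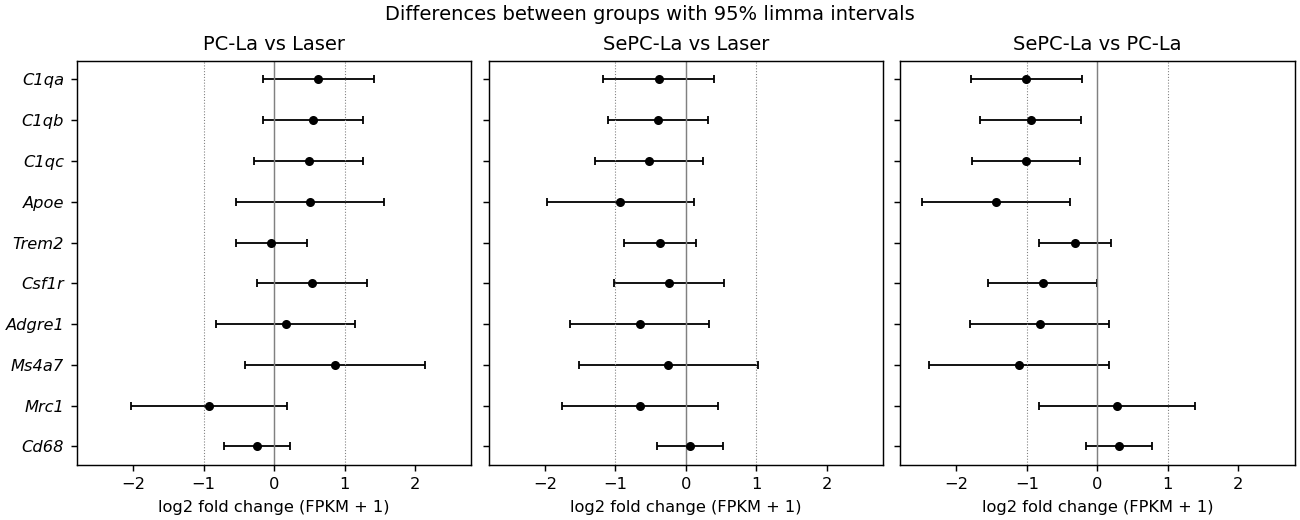
Differences of log2(FPKM + 1) for the 10 macrophage genes in the 3 comparisons, with points for the fitted value and bars for the 95% interval. Apoe, Ms4a7, C1qa and C1qc lie beyond -1 in SePC-La against PC-La, at -1.44, -1.11, -1.01 and -1.01, and of these the interval of Ms4a7 includes 0. All intervals in both comparisons with Laser include 0.

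Agreement between replicates differed widely by group. In SePC-La, all 10 genes were higher in the second sample, as were 55.6% of all genes tested, and 5 were higher by more than 1 on the log2 scale, as were 2.05% of all genes. These 5 were Mrc1, Ms4a7, Adgre1, Apoe and C1qa. The ratio of the second sample to the first in FPKM ran from 1.28 for Cd68 to 3.27 for Ms4a7, and was 2.85 for Mrc1, 2.67 for Adgre1 and 2.42 for Apoe. The median log2 difference of the 10 genes was 1.02, while the values of all genes had a median of 0.04 and their 5th to 95th percentiles lay from -0.41 to 0.69.

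The PC-La samples agreed closely, with 6 of the 10 genes higher in the second sample (50.1% of all genes), second-to-first ratios from 0.846 for Apoe to 1.14 for Csf1r and a median log2 difference of 0.016. In Laser the ratios ran from 0.502 for Ms4a7 to 1.38 for Cd68, with a median of 0.096, and 6 of the 10 genes were higher in the second sample, as were 46.8% of all genes. For C1qa the log2 gap between the SePC-La samples was 1.05, beside the difference of -1.01 between SePC-La and PC-La, and for Apoe it was 1.27, beside -1.44.

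**Figure D4:**
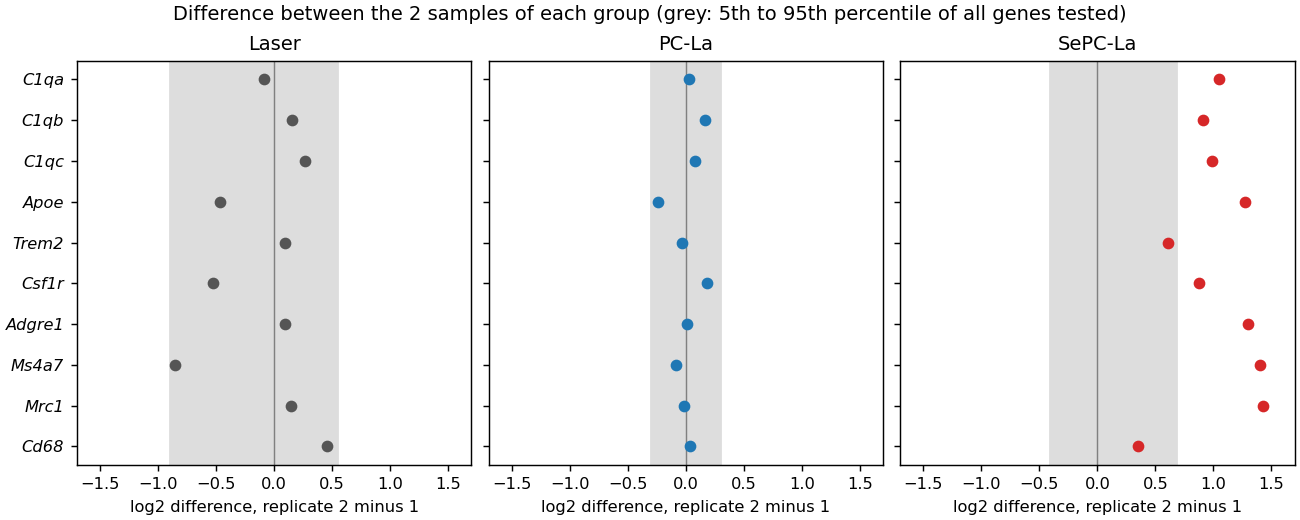
Difference of log2(FPKM + 1), second minus first replicate, for the 10 macrophage genes in each group, with a grey band from the 5th to the 95th percentile of all 10853 genes tested. All 10 genes lie above 0 in SePC-La with a median of 1.02, while the medians in Laser and PC-La are 0.096 and 0.016.

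Markers of other cells also differed between the SePC-La samples. The summed level of 6 fibroblast markers (Col1a1, Col1a2, Col3a1, Dcn, Lum and Pdgfra) was 117 FPKM in the first and 631 FPKM in the second, against 1239 and 283 FPKM in Laser and 1714 and 1562 FPKM in PC-La, and none of the 6 was at 0 in any sample. For 5 mast cell and basophil markers the sums were 0.821 and 67.9 FPKM in SePC-La, 78.8 and 1.37 FPKM in Laser, and 15.8 and 7.33 FPKM in PC-La. Among them Fcer1a was at 0 in the first SePC-La sample. Of 8 T and NK cell markers found in the table, all 8 were higher in the second SePC-La sample. Their sums were 7.13 and 17.8 FPKM in SePC-La, 14.7 and 6.56 FPKM in Laser, and 20.9 and 17.4 FPKM in PC-La. The lowest of these sums was that of the second Laser sample. Endothelial markers and proliferation genes went the other way, with sums of 36.3 and 27.8 FPKM and of 404 and 381 FPKM in SePC-La. The part of all these markers in the differences of the macrophage genes was not tested.

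Of 6 pan-leukocyte genes, 0 met the criterion in PC-La against Laser. All 6 (Ptprc, Laptm5, Coro1a, Cd53, Cd52 and Lcp1) were higher in PC-La than in Laser without overlap, against 20.4% of all genes tested. Their median log2 difference was 0.63, and 3 of the 6 had an unadjusted p under 0.05, against 5.78% of all genes in either direction. Without the second Laser sample the difference fell to 0.31 for Ptprc, 0.25 for Laptm5, 0.685 for Coro1a and 0.27 for Lcp1, and rose to 0.98 for Cd52. With all samples, the differences of the 6 ranged from 0.08 for Cd53 (adjusted p = 0.863 by limma) to 0.90 for Coro1a (adjusted p = 0.708). Their sums were 178 and 152 FPKM in Laser, 229 and 257 FPKM in PC-La, and 165 and 229 FPKM in SePC-La. Divided by Ptprc, which encodes the leukocyte antigen CD45, 0 of the 10 macrophage genes were higher in PC-La than in Laser, 4 were lower and 6 overlapped, while of all other genes tested 1.5% were higher, 79.5% lower and 19.0% overlapped after the same division. In SePC-La against PC-La 2 of the 10 were higher after division, 1 was lower and 7 overlapped, while all other genes gave 70.7%, 5.22% and 24.1%. In SePC-La against Laser 0 were higher, 1 was lower and 9 overlapped, against 2.74%, 17.4% and 79.8%. For 7 of the 10 the first SePC-La sample was still the lowest after the division, as it was for 8.18% of all genes.

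Markers of the other cell types gave varied orders of the samples. The sums of the B cell, dendritic cell, epithelial and muscle markers were also lowest in the first SePC-La sample. None of 5 B cell markers reached a mean of 1 FPKM, and 2 of 7 dendritic cell markers did. Of these 2, Clec9a measured 7.86 and 8.86 FPKM in Laser, 9.48 and 9.11 FPKM in PC-La, and 4.75 and 7.36 FPKM in SePC-La. The other, Ccr7, overlapped between the groups in every comparison. The sum of 9 neutrophil markers was 148 and 32.0 FPKM in Laser, 145 and 77.4 FPKM in PC-La, and 331 and 436 FPKM in SePC-La, so it was high in both SePC-La samples. S100a8, S100a9 and Retnlg met the criterion as higher in SePC-La than in Laser, and S100a8 and Retnlg also as higher than in PC-La. Of the 6 fits that left out a sample, all 6 kept both calls of S100a8, 2 kept that of S100a9, 3 that of Retnlg against Laser and 1 that of Retnlg against PC-La. All 5 muscle genes tested met it as lower in PC-La and in SePC-La than in Laser, where the second sample was high. Erythroid sums were lowest in the second Laser sample, at 13.6 FPKM, and highest in SePC-La, at 606 and 917 FPKM, and met the criterion as higher than Laser for 3 of 4 genes tested in PC-La and 4 of 4 in SePC-La. Markers of endothelium (20.7 to 36.3 FPKM in sum), epithelial markers (188 to 276 FPKM, nearly all Krt8 and Krt18) and proliferation genes (314 to 404 FPKM) had no gene at the criterion.

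**Figure D5:**
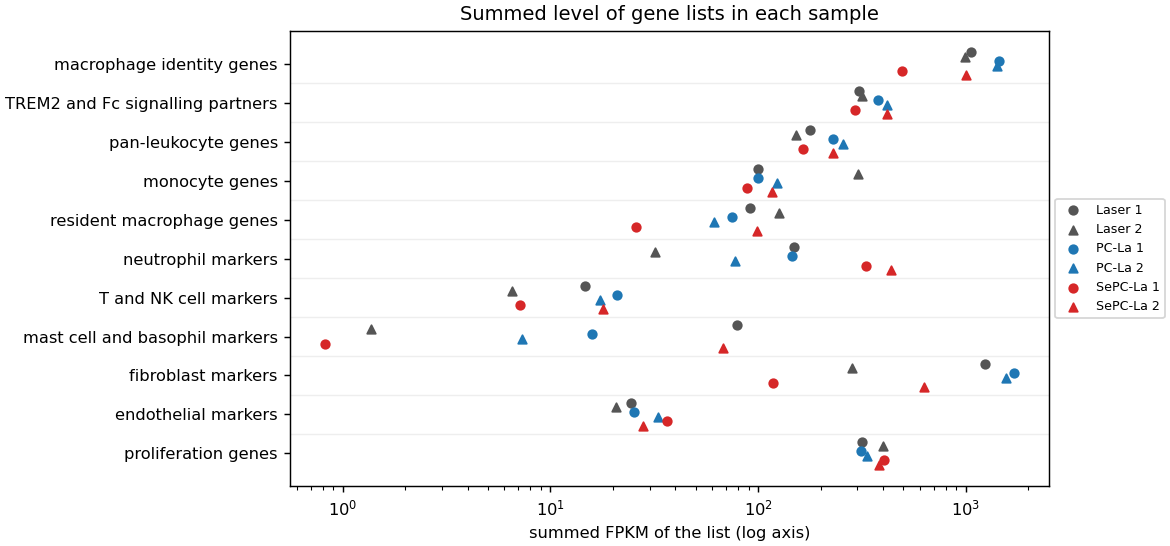
Summed FPKM of marker lists in the 6 samples (log axis), colored by group, with circles for first and triangles for second replicates. The fibroblast sum is 117 FPKM in the first and 631 FPKM in the second SePC-La sample, and the sum of the macrophage genes is also lower in the first, at 495.5 against 1007 FPKM.

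Few of the ligands and lineage factors around CSF1R reached the criterion. Of 8 genes, Csf1, Il34, Spi1 and Irf8 among them, 1 met the criterion, Cebpa in SePC-La against PC-La. Csf1, the ligand, measured 55.2 and 35.3 FPKM in Laser, 37.8 and 48.3 FPKM in PC-La, and 74.4 and 66.8 FPKM in SePC-La, where both samples lay above all others (log2 difference 0.66 from Laser, SE 0.23, adjusted p = 0.385 by limma). The ratio of Csf1 to Csf1r was 2.16 and 2.02 under Laser, 1.297 and 1.45 under PC-La, and 5.78 and 2.74 under SePC-La, with no overlap between the groups. Cebpa, a factor of myeloid differentiation, measured 7.67 and 6.32 FPKM in Laser, 12.1 and 10.2 FPKM in PC-La, and 2.63 and 7.54 FPKM in SePC-La, and its difference of -1.12 (SE 0.39) from PC-La became -0.51 without the first SePC-La sample.

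Partners of TREM2 did not reach the criterion. Of 9 adaptor, kinase and Fc receptor genes, none met it in any comparison. Tyrobp, the adaptor through which TREM2 signals, measured 66.2 and 75.4 FPKM in Laser, 89.9 and 96.5 FPKM in PC-La, and 61.1 and 105.7 FPKM in SePC-La. Trem2 divided by Tyrobp was 0.0764 and 0.0727 under Laser, 0.0574 and 0.0522 under PC-La, and 0.0483 and 0.0475 under SePC-La, so this ratio was similar in both SePC-La samples and lowest there. Fcer1g, the signalling chain shared by Fc receptors, measured 73.1 to 122 FPKM over the 6 samples.

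Among 10 scavenger and efferocytosis receptor genes that were tested, Marco alone met the criterion, as lower in PC-La than in Laser and higher in SePC-La than in PC-La. The first call held in 1 and the second in 2 of the 6 fits that left out a sample. Marco was at 0 and 0.0347 FPKM in PC-La, against 0.529 and 5.27 FPKM in Laser and 2.23 and 2.35 FPKM in SePC-La. Msr1, which encodes scavenger receptor A and was singled out for the photosensitizer's reported target, measured 19.8 and 21.1 FPKM in Laser, 12.9 and 17.7 FPKM in PC-La, and 16.1 and 20.5 FPKM in SePC-La. Its difference of -0.41 (SE 0.19) in PC-La against Laser had an adjusted p of 0.753 by limma. Axl, a receptor for apoptotic cells, measured 110.3 to 123 FPKM, and Lrp1, an endocytic receptor that binds APOE, was lower in SePC-La than in Laser by -0.53 (SE 0.17, adjusted p = 0.376).

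Mertk, a receptor for dying cells related to Axl, was singled out after its values were seen. It measured 10.5 and 8.86 FPKM in Laser, 9.83 and 9.28 FPKM in PC-La, and 4.13 and 4.83 FPKM in SePC-La. Both SePC-La samples lay below the other 4. The differences were -0.96 from Laser (SE 0.14, adjusted p = 0.376 by limma) and -0.95 from PC-La (SE 0.14, adjusted p = 0.107), and the latter was -0.85 without the first SePC-La sample.

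Of 8 genes of resident macrophages 6 were tested, with F13a1 lower at the criterion in PC-La against Laser and Cx3cr1 in SePC-La against PC-La. Of the 6 fits that left out a sample, 3 kept the call of F13a1 and 2 that of Cx3cr1. Selenop, the selenium transport protein gene, measured 50.4 and 52.6 FPKM in Laser, 44.6 and 33.0 FPKM in PC-La, and 11.3 and 49.4 FPKM in SePC-La, and so repeated the low first SePC-La sample. F13a1, a transglutaminase gene, measured 9.65 and 31.2 FPKM in Laser and 5.42 and 3.94 FPKM in PC-La, a difference of -1.72 (SE 0.58, adjusted p = 0.753 by limma). Cx3cr1, the fractalkine receptor gene, measured 8.97 and 0.264 FPKM in Laser, 10.9 and 13.2 FPKM in PC-La, and 0.400 and 1.45 FPKM in SePC-La.

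Of 5 other genes of the MS4A family, Ms4a4a was lower in PC-La than in Laser and met the criterion, while the family member Ms4a7 was higher there. Ms4a4a measured 35.7 and 46.7 FPKM in Laser, 16.7 and 15.9 FPKM in PC-La, and 23.2 and 28.6 FPKM in SePC-La. Its difference was -1.27 (SE 0.17, adjusted p = 0.406 by limma) and met the criterion in all 6 fits that left out a sample. The ratio of Ms4a7 to Ms4a4a was 0.239 and 0.0916 under Laser, 0.736 and 0.725 under PC-La, and 0.115 and 0.305 under SePC-La. Ms4a6d, the most abundant of the 5, measured 37.9 to 64.6 FPKM.

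Of 10 genes tested from a list of lipid export and lipid-associated macrophages, Lgals3, which encodes galectin-3, met the criterion as higher in SePC-La than in PC-La. It measured 195 and 425 FPKM in Laser, 151 and 137 FPKM in PC-La, and 419 and 367 FPKM in SePC-La. SePC-La thus overlapped Laser, and both PC-La samples lay below Laser. The log2 difference between SePC-La and PC-La was 1.44 (SE 0.35, adjusted p = 0.126 by limma). The difference ran from 1.35 to 1.54 when any sample was left out. Spp1, which encodes osteopontin, measured 847 and 621 FPKM in Laser, 1114 and 1192 FPKM in PC-La, and 805.5 and 924 FPKM in SePC-La. Of 8 lysosomal genes none met the criterion. Lyz2, the lysozyme gene of myeloid cells, was highest in the second Laser sample, at 1409 FPKM against 599 to 779 FPKM in the others, and Ctss, a protease gene, measured 229.6 to 437 FPKM.

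Among 11 other complement genes that were tested, Itgax, a chain of a complement receptor, met the criterion in PC-La against Laser, with a log2 difference of 1.54 (SE 0.42), and was lower in SePC-La than in PC-La by -1.16 (SE 0.42). The fits without a sample kept the first call in 4 of 6 cases and the second in 2. C3, the central component of the cascade, was higher in SePC-La than in PC-La by 1.26 (SE 0.31, adjusted p = 0.128 by limma), opposite in sign to the C1q genes, and its call held in all 6 fits. It measured 21.9 and 11.4 FPKM in Laser, 8.12 and 11.5 FPKM in PC-La, and 22.8 and 26.3 FPKM in SePC-La. Cfp, the properdin gene, measured 19.6 and 21.6 FPKM in PC-La against 29.8 to 54.0 FPKM in the other 4 samples, and C1s1, a protease partner of C1q, ranged from 7.24 to 33.6 FPKM.

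Monocyte genes gave counts in both directions. Of 8, Vcan, Ace and Ccr2 met the criterion as lower in SePC-La than in PC-La, and Plac8 as higher in SePC-La than in Laser. Of the 6 fits without a sample, 5 kept the calls of Vcan and of Plac8, and 4 those of Ace and of Ccr2. Vcan measured 42.9 and 43.9 FPKM in PC-La and 14.9 and 22.8 FPKM in SePC-La, a difference of -1.19 (SE 0.23, adjusted p = 0.126 by limma). Ccr2, the receptor that draws monocytes into tissue, measured 14.8 and 7.50 FPKM in Laser, 18.6 and 25.4 FPKM in PC-La, and 8.01 and 12.5 FPKM in SePC-La. Plac8 measured 12.4 and 8.68 FPKM in Laser and 23.0 and 26.9 FPKM in SePC-La. Chil3 reached 242 FPKM in the second Laser sample against 7.72 to 36.3 FPKM in the others.

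Most of the 10 genes varied together over the 6 samples. The Pearson correlation of each with the mean of the other 9 was 0.848 to 0.982 for 8 genes, 0.328 for Mrc1 and -0.119 for Cd68. Without the first SePC-La sample and the second PC-La sample, which lay farthest from the median of the profile, the correlation was 0.56 to 0.98 for 7 of the 8, and -0.45 for Trem2, -0.96 for Mrc1 and -0.73 for Cd68. These values share the same libraries and describe 6 and 4 samples only.

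Of 1587 other genes that reached a mean of 5 FPKM and an SD of 0.3 on the log2 scale, the 10 with the profile most like the members' mean were Dipk1a, Cpped1, Micu2, Acat1, Pigp, Pccb, Pdlim2, P2ry6, Olfml2b and Cebpa. Their Pearson correlations over the 6 samples ran from 0.991 for Dipk1a to 0.970 for Cebpa. Over the 4 samples left after the same omission they ran from 0.60 for Olfml2b to 0.99 for Pccb.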

How the data were processed

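RNA was measured in 6 whole-tumor samples, 2 per group, grouped by their treatment labels. The authors deposited a single table of FPKM values. The submitters' notes name HISAT2 2.0.5, HTSeq 0.9.1, DESeq 1.30.0 and the build mm9, with no roles, and exon lengths of the GRCm38 annotation (GENCODE M21) turned the values into whole reads (tolerance 0.02) in all 6 samples for 97.8% of expressed genes, so gene positions here follow GRCm38. FPKM are relative to each sample's total, so a few abundant genes can shift the rest.

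Differences were tested with limma 3.58.1 (R 4.3.3; trend and robust estimation) on log2(FPKM + 1) for the 10853 genes whose mean reached 1 FPKM, with all 6 samples in a single fit and Benjamini-Hochberg adjustment over all genes. The criterion, after the study's methods, was a log2 difference beyond 1 with an unadjusted p under 0.05. The study used it with DESeq, so the counts here are not the study's own. The log2 scale with its pseudocount of 1 understates changes of low genes. The alternatives were a pseudocount of 0.1, no filter or a minimum of 5 FPKM, median-ratio and quantile scaling, no trend, only the 4 samples compared, a replicate block, voom on recovered reads, and leaving out each sample. The script was tested on simulated data.

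The members and gene lists were chosen with earlier results of these data known. Values are named for all 10 members and for genes of each other macrophage or monocyte list that met the criterion or were among its 2 most abundant. They are also named for Msr1, Mertk and Clec9a, chosen apart from that rule, and for the 10 genes most like the members' mean. A gene that this rule would name is not reported here. Counts and sums are given for lists of other cell types, and of the T and NK cell list Trac was not matched.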

Additional observations from a re-analysis of the deposited data

How the results depend on the processing

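Of the 10 members' results, the settings other than leaving out a sample kept direction and side of the criterion except as follows. With quantile normalization, 1 member met the criterion in SePC-La against Laser (Apoe, at -1.19) where 0 did, 4 members met it in SePC-La against PC-La, and Cd68 in SePC-La against Laser turned from 0.06 to -0.05. Of all 10853 genes, 77 met the criterion in SePC-La against Laser and 318 in SePC-La against PC-La with this normalization. With median-ratio scaling 1 member met it in SePC-La against PC-La in place of 3. With limma voom on the recovered reads Ms4a7 joined the 3, at -1.24. The causes were not tested.

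Leaving out each sample in turn moved the number of members at the criterion from 0 to 4 in SePC-La against Laser and from 0 to 7 in SePC-La against PC-La. The members' median ran from 0.28 to 0.50 in PC-La against Laser, from -0.93 to 0.06 in SePC-La against Laser and from -1.44 to -0.37 in SePC-La against PC-La. Signs turned in SePC-La against Laser for Csf1r (-0.67 to 0.20), C1qa (-0.91 to 0.14), C1qb (-0.85 to 0.06), Mrc1 (-1.36 to 0.06), Cd68 (-0.17 to 0.29) and Ms4a7 (-0.95 to 0.46), in SePC-La against PC-La for Mrc1 (-0.44 to 0.99), and in PC-La against Laser for Trem2 (-0.09 to 0.01). A left-out sample leaves a group with 1 sample, which is assumed to vary like the others.

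Correlations over genes of the deviations from the group means were 0.09 for Laser with PC-La, -0.43 for Laser with SePC-La and -0.18 for PC-La with SePC-La. With 2 samples per group, these values cannot decide whether the replicate numbers pair the samples. In a fit that took the replicate number as its block, 0, 0 and 3 members met the criterion in PC-La against Laser, SePC-La against Laser and SePC-La against PC-La, with medians of 0.50, -0.39 and -0.89, and no call of a member changed.

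Over all genes, 140, 74 and 323 met the criterion in these comparisons. Voom gave 257, 151 and 553, a pseudocount of 0.1 gave 129 in the second and 488 in the third, and a minimum mean of 5 FPKM gave 68, 46 and 186. Leaving out each sample moved them over 71 to 664, 60 to 253 and 169 to 584, with 664 and 253 without the first Laser sample, 71 in the first comparison without the second PC-La sample, and in the third 169 without the first and 584 without the second SePC-La sample. The third count was 128 higher and 195 lower, and 166 and 149 with median-ratio scaling. Genes with an adjusted p under 0.05 numbered 0 in each comparison. In the third there were 637 with only the 4 samples compared, 639 and 643 without either Laser sample, 3 with the 5 FPKM minimum, 6 with median-ratio scaling, 8 with quantile normalization and 1 without the second SePC-La sample. Without the first Laser sample there were 312 in the first and 97 in the second, and without the second SePC-La sample 1 in the second. No member was among any of these. The lowest count behind a member's value was 172 recovered reads, for Ms4a7 in the first SePC-La sample.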
